A study of Mus musculus with 24 samples.

Results

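Differentiated calvarial osteoblast cultures of high bone mass (HBM) mice were compared with wild-type (WT) cultures after the counts of days 10, 15 and 21 had been added up for each culture. For each genotype and each batch number (18, 19 and 21) the 3 libraries of those days were summed, so that 18 of the 24 libraries of the series gave 6 summed cultures, 3 HBM and 3 WT. The 6 libraries of day 0 were left out of the sum. Every HBM culture was compared with the WT culture of the same batch number, across all genes.

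The series is bulk RNA-seq of polyadenylated RNA from mouse osteoblast cultures at 4 times of differentiation in culture. Both genotypes were grown from calvariae, the flat bones of the skull roof, of newborn mice. Each culture was a pool of several animals, with 3 independent pools per genotype, so that the values below are averages over pooled animals and the number of animals per pool is not given in the labels. No drug or other treatment was named for either genotype. The labels give neither the mutation of the HBM line nor its strain, and the series title concerns removal of the C-propeptide of procollagen. What is generally known of this mouse model, though no label says it, is that its Col1a1 is altered where the C-proteinase cuts; counts per gene cannot show such an alteration.

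Osteoblasts secrete collagen I as procollagen, a triple helix of chains from Col1a1 and Col1a2 with a propeptide at each end. Proteases of the BMP1 and tolloid family cut off the C-propeptide, after which the molecules assemble into fibrils that are cross-linked and mineralized. As osteoblasts mature they switch on bone sialoprotein, osteocalcin and alkaline phosphatase, and those that become buried in matrix turn into osteocytes, which make sclerostin.

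Each summed culture held 99371858 to 122925143 counts, from libraries of 28039095 to 46987734 counts. Levels below are CPM (the count of a gene scaled to library size), always listed in the order of batches 18, 19 and 21. The first principal component, with 47.5% of the variance, set both cultures of batch 21 (51.95 and 54.38) apart from the other 4 cultures (-49.45 to -17.61), and the third, with 15%, set the 3 HBM cultures (-29.96 to -15.92) apart from the 3 WT cultures (14.7 to 25.96). Cultures of one batch thus resembled each other more than cultures of one genotype did, and groups often overlapped although each pair differed the same way.

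The paired test, edgeR's quasi-likelihood test with the batch as a block and Benjamini-Hochberg adjustment over 17728 genes, found 419 genes with an adjusted p under 0.05 (2.36% of those tested). Of these, 249 were higher in HBM (1.4%) and 170 were lower (0.959%). The median log2 difference, HBM minus WT, was 0.68 for the higher and -0.53 for the lower genes, against -0.01 over all genes, and 81 higher and 29 lower genes differed by at least 2-fold. All 249 and all 170 had the same sign in the 3 pairs, as did 8382 of all genes tested (47.3%). Over all genes tested, called or not, 8625 had a log2 difference above 0 and 9103 below 0, the background for the lists below. The smallest adjusted p was 0.0271. An unadjusted p under 0.05 was reached by 4062 genes (22.9%), 2075 of them higher and 1987 lower in HBM. DESeq2, another test, was run on 30373 genes and called 769 higher and 661 lower. Both are the background where such counts are given for a list. The 419 calls of edgeR's test rested on few pairs. Without the pair of batch 21 none of them passed, although 3350 genes had an unadjusted p under 0.05. Without that of batch 19 only Slc13a5 passed, 1 of the 419.

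**Figure D1:**
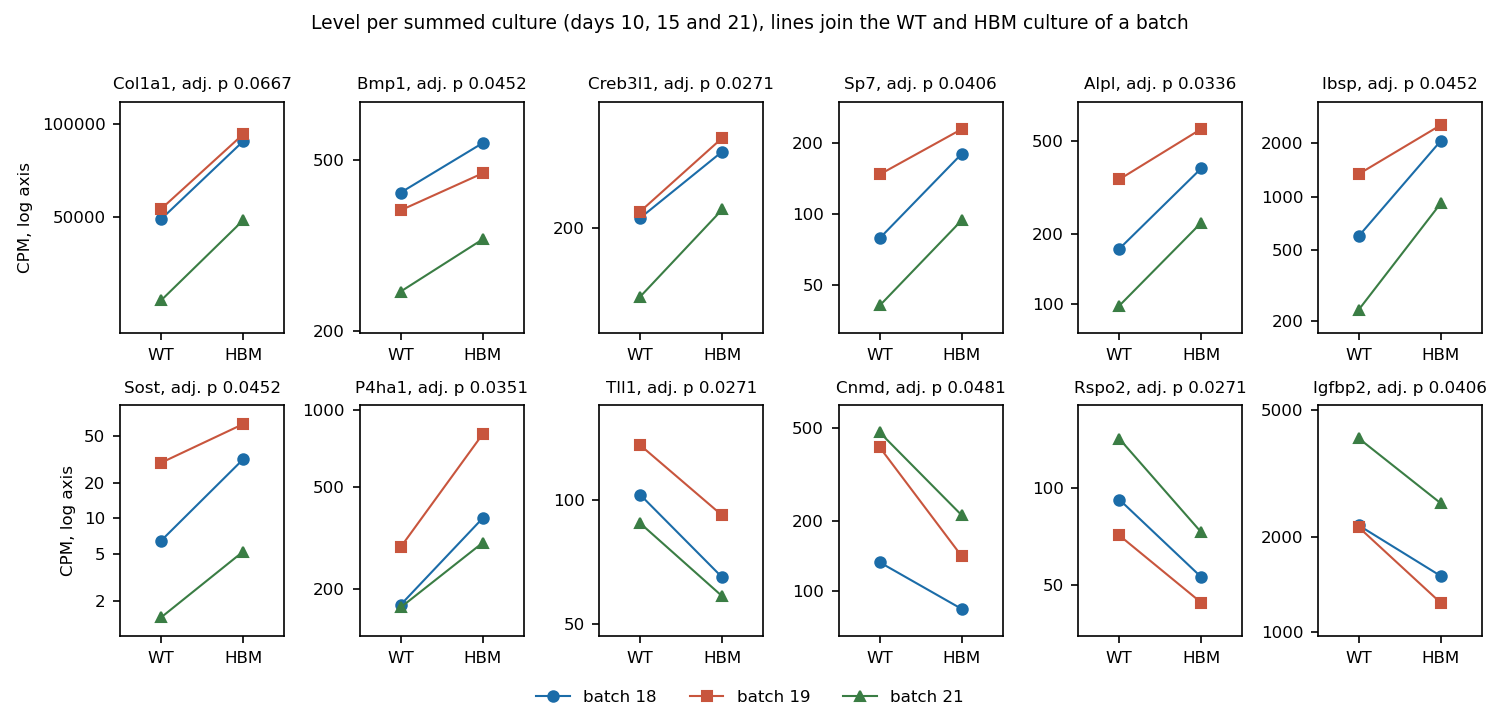
Level of 12 genes in CPM (vertical, log axis, a separate range for each gene) in the 3 WT and the 3 HBM summed cultures, with a line joining the cultures of 1 batch. All 3 lines rise for the first 8 genes and fall for the last 4, and the batches lie apart by as much as the genotypes do; Col1a1, at an adjusted p of 0.0667, did not pass the test.

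The collagen I chains were the first question, since the model is one of procollagen processing. Col1a1 (chr11:94936224-94953042, plus strand, mm10) was at 49078, 52990 and 26694 CPM in WT and at 88108, 92857 and 48702 CPM in HBM. Each HBM culture lay above its WT partner, while the HBM culture of batch 21 lay below the WT cultures of batches 18 and 19. The log2 difference was 0.84 ± 0.16 (standard error), with an adjusted p of 0.0667, and it was above 0 in 9 of 9 comparisons within a batch and day. The 9 comparisons use the libraries that were summed, so here and below they only describe the difference. Among all genes tested, 6.21% were above 0 in all 9 and 5.78% below 0. The partner chain Col1a2 was at 42568, 48238 and 21101 CPM in WT and at 72071, 78453 and 35701 CPM in HBM. The pattern over the cultures was the same, with a log2 difference of 0.74 ± 0.15 and an adjusted p of 0.076. Neither chain passed the threshold in this fit. Both did with DESeq2 (adjusted p = 1.1e-33 and 9.97e-27) and in edgeR without its filter on low counts (0.00109 and 0.00119). Both also did at day 15 alone (0.0128 and 0.0139), a setting chosen after seeing the data. In every other edgeR setting neither passed. Without the block Col1a1 was at 0.997. Without batch 21 the chains were at 0.187 and 0.2, at day 10 alone at 0.141 and 0.153, and at day 21 alone at 0.29 and 0.336.

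Among the proteases that remove the C-propeptide, 1 was higher and 1 lower in HBM. Bmp1, the main procollagen C-proteinase, was at 420, 382 and 247 CPM in WT and at 548, 466 and 327 CPM in HBM. It was higher in every pair, by a log2 of 0.36 ± 0.05 (adjusted p = 0.0452). Tll1, which encodes tolloid-like 1 of the same family, was at 103, 136 and 87.8 CPM in WT and at 64.8, 91.7 and 58.3 CPM in HBM. It fell by 0.61 on the log2 scale (standard error 0.04, adjusted p = 0.0271), and it was lower in 9 of 9 comparisons within a batch and day. The enhancer of C-propeptide cleavage Pcolce gave 1754, 1351 and 1061 CPM in WT against 1891, 1466 and 1192 CPM in HBM, a log2 difference of 0.13 that did not pass (adjusted p = 0.278). Its relative Pcolce2 had a log2 difference of 1.09 ± 0.21 (adjusted p = 0.0675). For the 8 members tested in this list the median log2 difference was 0.27, and the 2 proteases were its only calls.

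Of 26 enzymes, chaperones and export factors of procollagen, 6 were higher in HBM, none was lower, and the median log2 difference was 0.24. P4ha1, a catalytic subunit of the prolyl 4-hydroxylase that stabilizes the collagen helix, was at 174, 292 and 170 CPM in WT and at 379, 806 and 304 CPM in HBM. All 3 HBM cultures exceeded all 3 WT cultures, with the HBM culture of batch 19 the highest. The log2 difference was 1.14 ± 0.12 (adjusted p = 0.0351). The other 5 were P3h1 (0.53, adjusted p = 0.0478), P3h2 (0.69, adjusted p = 0.0467) and P3h4 (0.38, adjusted p = 0.0406), which belong to the prolyl 3-hydroxylase family, the lysyl hydroxylase Plod1 (0.38, adjusted p = 0.047) and the collagen chaperone Fkbp10 (0.48, adjusted p = 0.048). Serpinh1, which encodes the collagen chaperone HSP47, lay just outside the threshold with a log2 difference of 0.50 (adjusted p = 0.0501), and the second catalytic subunit P4ha2 had 0.87 (adjusted p = 0.0533). The N-propeptide protease Adamts2 gave 0.21 (adjusted p = 0.151), and the lysyl hydroxylase of telopeptides Plod2 gave -0.02 (adjusted p = 0.788).

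Upstream sequences of P4ha1, higher in HBM, and of Igfbp2, a binding protein of insulin-like growth factors that was lower in HBM, are shown because both hold the core of a hypoxia response element while they differed in opposite directions. The motif searched was NACGTGC on both strands, where it can overlap its own reverse complement, in the 250 bases before the RefSeq gene start (GRCm38.p6), and capitals mark the match. P4ha1 is shown from chr10:59323046-59323295 and Igfbp2 from chr1:72824230-72824479, both on the plus strand.
P4ha1: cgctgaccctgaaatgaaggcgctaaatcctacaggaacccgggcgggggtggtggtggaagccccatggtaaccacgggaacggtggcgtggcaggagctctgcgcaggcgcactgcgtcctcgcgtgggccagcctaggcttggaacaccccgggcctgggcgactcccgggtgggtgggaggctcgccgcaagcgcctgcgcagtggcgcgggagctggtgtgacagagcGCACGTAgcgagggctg
Igfbp2: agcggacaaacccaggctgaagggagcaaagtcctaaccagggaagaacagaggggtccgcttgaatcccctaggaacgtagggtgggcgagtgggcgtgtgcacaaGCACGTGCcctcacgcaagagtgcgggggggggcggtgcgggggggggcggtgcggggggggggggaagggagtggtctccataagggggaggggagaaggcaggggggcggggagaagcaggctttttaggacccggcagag
The match lies 17 to 11 bases before the start in P4ha1, and in Igfbp2 the matches on the 2 strands span 143 to 136 bases before it. A promoter was matched by symbol for 12422 of the genes tested, for 183 of those higher and for 119 of those lower in HBM. The motif was present in 6.42% of the promoters of tested genes, in 12 of the 183 (6.56%) and in 6 of the 119 (5.04%). A RUNX motif (TGTGGTT, both strands) was in 3.28% of the promoters of tested genes, in 5 of the 183 (2.73%) and in none of the 119. The composite ATF4 and C/EBP motif TGATGNAA was in 2.06%, in 7 of the 183 (3.83%) and in none of the 119. These matches describe the letters of the windows and were not tested as binding sites.

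Osteoblast genes were the list with the most calls. Of 22 members tested, 11 were higher in HBM and none was lower, 20 had a log2 difference above 0, and the median was 0.73. In bulk RNA, more cells of a mature type and more RNA of these genes per cell cannot be told apart, here or for any list below. Among the transcription factors, Sp7, which encodes osterix and is required for osteoblast formation, was at 78.8, 147 and 40.8 CPM in WT and at 180, 229 and 94 CPM in HBM. Every pair differed the same way and the groups overlapped, since the WT culture of batch 19 lay above the HBM culture of batch 21. The log2 difference was 1.01 ± 0.12 (adjusted p = 0.0406). The homeobox factor Dlx3 was higher as well (1.27, adjusted p = 0.0494). Runx2, the master regulator upstream of Sp7, was at 76.9, 102 and 63.4 CPM in WT and at 99.1, 113 and 73.6 CPM in HBM, a log2 difference of 0.24 that did not pass (adjusted p = 0.0846).

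Creb3l1, a membrane-bound transcription factor of the endoplasmic reticulum that drives Col1a1 in osteoblasts, was at 214, 223 and 129 CPM in WT and at 328, 358 and 226 CPM in HBM. The 2 groups did not overlap, although the lowest HBM culture was only just above the highest WT culture. Its log2 difference of 0.70 ± 0.05 (adjusted p = 0.0271) was above 0 in 9 of 9 comparisons within a batch and day. The parathyroid hormone receptor gene Pth1r was also higher (0.70 ± 0.09, adjusted p = 0.0406).

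Some matrix proteins and enzymes of mature osteoblasts passed and others did not. Ibsp, which encodes bone sialoprotein, was at 602, 1339 and 233 CPM in WT and at 2057, 2518 and 920 CPM in HBM. Batch 21 was lowest and batch 19 highest in both genotypes. HBM was 2.94-fold higher (log2 1.56 ± 0.22, adjusted p = 0.0452). Alpl, the tissue-nonspecific alkaline phosphatase that frees phosphate for mineral, was at 172, 342 and 97.9 CPM in WT and at 382, 564 and 223 CPM in HBM. It was 2.03-fold higher (log2 1.02 ± 0.10, adjusted p = 0.0336) and above WT in 9 of 9 comparisons within a batch and day.

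The osteocalcin gene Bglap2 was at 222, 303 and 50.5 CPM in WT and at 813, 556 and 138 CPM in HBM. The largest gap was in batch 18, and the log2 difference was 1.40 ± 0.19 (adjusted p = 0.0448). Its near-identical neighbour Bglap was at 270, 370 and 53.7 CPM in WT and at 968, 608 and 148 CPM in HBM (log2 1.34 ± 0.22, adjusted p = 0.0533). How reads that match both copies, and the related Bglap3, were divided is unknown, so the call of Bglap2 without Bglap is uncertain. Tnn, which encodes the matrix protein tenascin N, was at 88.4, 70.4 and 45.6 CPM in WT and at 187, 222 and 219 CPM in HBM. The groups did not overlap, and the log2 difference was 1.67 ± 0.22 (adjusted p = 0.0448). Spp1, the gene of osteopontin, gave 1134, 1456 and 490 CPM against 1719, 1900 and 834 CPM and did not pass (log2 0.58 ± 0.09, adjusted p = 0.051).

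Mineral handling and osteocyte genes each held 2 calls, all higher in HBM. Of 11 genes of mineral and phosphate handling, Alpl and Phospho1 were called, and the median log2 difference was 0.28. Phospho1, a phosphatase of matrix vesicles, was at 8.49, 19.1 and 4.23 CPM in WT and at 24.9, 31.6 and 11.5 CPM in HBM (log2 1.23 ± 0.17, adjusted p = 0.0452). Of 9 osteocyte genes, all had a log2 difference above 0, with a median of 0.88, and Sost and Dkk1 were called. Sost, which encodes the Wnt inhibitor sclerostin, was at 6.48, 29.7 and 1.45 CPM in WT and at 31.8, 63.2 and 5.25 CPM in HBM. Its spread between batches was wider than that between genotypes, yet HBM was higher in every pair (3.29-fold, log2 1.72 ± 0.24, adjusted p = 0.0452). Dmp1, a phosphoprotein of early osteocytes, gave 22.4, 35.8 and 19.8 CPM in WT against 54.8, 58.2 and 76.3 CPM in HBM (log2 1.31 ± 0.23, adjusted p = 0.061). Phex, a peptidase that keeps phosphate from being lost, gave 50.7, 113 and 11 CPM against 135, 152 and 19.1 CPM (log2 0.88 ± 0.19, adjusted p = 0.081). Neither of these last genes passed.

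**Figure D2:**
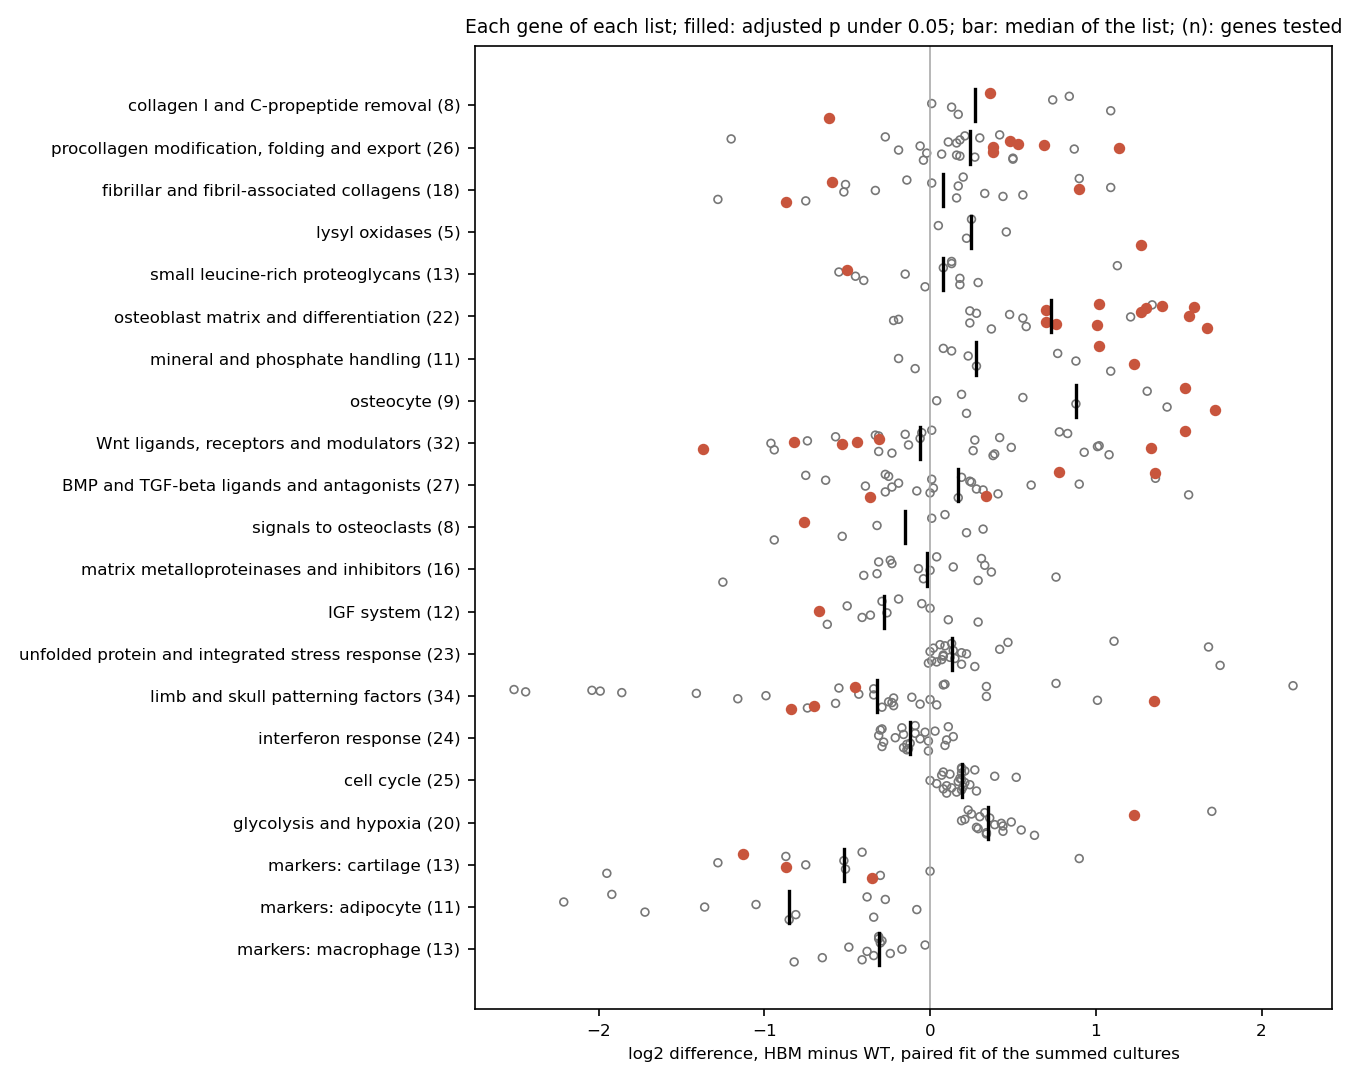
Log2 difference, HBM minus WT, of every tested gene of 21 lists (horizontal), with filled points for an adjusted p under 0.05, open points for the rest and a bar at the median. All filled points of the osteoblast, osteocyte, mineral and procollagen lists lie above 0, at medians of 0.73, 0.88, 0.28 and 0.24, and those of the cartilage list lie below 0, at a median of -0.52.

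Other collagens and their cross-linking enzymes divided. Of 18 fibrillar and fibril-associated collagens, 1 was higher, 2 were lower and the median log2 difference was 0.08. Col24a1, a fibrillar collagen of bone, was at 54.6, 93 and 26.2 CPM in WT and at 124, 138 and 50.5 CPM in HBM (log2 0.90 ± 0.12, adjusted p = 0.0439). Col9a3, a chain of cartilage collagen IX, was at 94.9, 372 and 253 CPM in WT and at 54.6, 209 and 129 CPM in HBM. It fell by 0.87 on the log2 scale (standard error 0.05, adjusted p = 0.0271), with each HBM culture below its partner. Col14a1, a collagen on the surface of fibrils, was at 556, 569 and 452 CPM in WT and at 419, 361 and 276 CPM in HBM, with no overlap, and fell by 0.59 (adjusted p = 0.0422). The minor fibrillar chains Col5a1 and Col5a2, which regulate fibril diameter, had log2 differences of 0.56 (adjusted p = 0.0519) and 0.44 (adjusted p = 0.0604). Of 5 lysyl oxidases, which cross-link collagen, Loxl4 was higher (33.6, 87 and 19.2 CPM in WT, 110, 170 and 42.5 CPM in HBM, log2 1.27 ± 0.15, adjusted p = 0.0392) while Lox gave 0.25 (adjusted p = 0.162). Of 13 small leucine-rich proteoglycans, which bind fibrils, only Ecm2 was called, and it fell by 0.50 (adjusted p = 0.0322).

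Genes of Wnt signalling, a pathway that promotes bone formation, were called in both directions: 2 of 32 were higher and 5 were lower, at a median log2 difference of -0.06. Dkk1, a secreted inhibitor that blocks the LRP5 and LRP6 receptors, was at 6.11, 23.1 and 2.32 CPM in WT and at 24.7, 51.7 and 6.33 CPM in HBM (log2 1.54 ± 0.17, adjusted p = 0.0359). The ligand Wnt10b was at 5.39, 8.62 and 2.29 CPM in WT and at 11.3, 18.7 and 8.31 CPM in HBM (log2 1.33 ± 0.17, adjusted p = 0.0428). Both were higher in all 3 pairs, and both overlapped between the groups. Rspo2, an R-spondin that amplifies Wnt signals, was at 91.9, 71.1 and 142 CPM in WT and at 52.7, 43.9 and 72.6 CPM in HBM. It fell by 0.82 (standard error 0.06, adjusted p = 0.0271), and its relative Rspo3 fell by 0.44 (standard error 0.04, adjusted p = 0.0271). Wnt11, a ligand at low level, was at 2.56, 3.74 and 5.56 CPM in WT and at 1.2, 1.52 and 1.7 CPM in HBM, without overlap, and fell by 1.37 (adjusted p = 0.036). The coreceptor Lrp6 fell by 0.31 (adjusted p = 0.0456), and the secreted frizzled-related inhibitor Sfrp2 fell by 0.53 (adjusted p = 0.0461). The Wnt target gene Axin2, a common readout of the pathway, was at 8.04, 4.87 and 7.33 CPM in WT and at 6.7, 4.19 and 10.3 CPM in HBM, with a log2 difference of 0.01 ± 0.17 (adjusted p = 0.984).

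Of 27 ligands and antagonists of the BMP and TGF-beta family, 3 were higher, 1 was lower and the median log2 difference was 0.17. Bmp2, which induces bone formation, was at 7.52, 8.67 and 5.35 CPM in WT and at 13, 14.6 and 9.38 CPM in HBM. All HBM cultures lay above all WT cultures, by a log2 of 0.78 ± 0.06 (adjusted p = 0.0271). Bmp3, which antagonizes osteogenic BMPs, was at 23.7, 39 and 9.57 CPM in WT and at 74.2, 80 and 25.3 CPM in HBM (log2 1.36 ± 0.12, adjusted p = 0.0271). Tgfb1 was higher by 0.34 (adjusted p = 0.0407) and Tgfb2 fell by 0.36 (adjusted p = 0.0378). Sostdc1, an antagonist of BMP and Wnt signals, had a log2 difference of 1.56 ± 0.41 that did not pass (adjusted p = 0.113).

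Of 8 signals to osteoclasts, 1 was called: Cxcl12, a chemokine that retains blood cell precursors, was at 1313, 958 and 903 CPM in WT and at 821, 651 and 441 CPM in HBM. The groups did not overlap, and it fell by 0.76 (standard error 0.10, adjusted p = 0.0448). Tnfsf11, the gene of the osteoclast factor RANKL, was at 0.641 to 3.7 CPM in the 6 cultures and did not pass (log2 -0.53 ± 0.17, adjusted p = 0.163). It was lower in HBM than in WT in every batch on each of the days summed. The gene of the decoy receptor of RANKL, Tnfrsf11b, gave 0.22 ± 0.17 (adjusted p = 0.502). Of 12 genes of the insulin-like growth factor system, 1 was lower. Igfbp2, whose upstream sequence is printed above, was at 2169, 2139 and 4074 CPM in WT and at 1502, 1236 and 2544 CPM in HBM, and it fell by 0.67 (standard error 0.08, adjusted p = 0.0406). None of 16 matrix metalloproteinases and inhibitors passed in edgeR's test. Of these, 7 had an unadjusted p under 0.05 (22.9% of all genes tested had), while DESeq2 called 4 higher and 2 lower. The tissue inhibitor Timp1 came nearest in edgeR's test (log2 0.76 ± 0.12, adjusted p = 0.0531).

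Of 23 listed genes of the unfolded protein and integrated stress responses, none passed in edgeR's test, near the share of 2.36% over all genes tested. A log2 difference above 0 was seen for 21, and the median was 0.13. At an unadjusted p under 0.05, 11 of the 23 were higher and none lower, against 2075 of 17728 genes higher. DESeq2 called 4 higher. The stress-induced gene Nupr1, outside the list, was called higher and is given below. The classic chaperone of the unfolded protein response, Hspa5, was at 887, 715 and 841 CPM in WT and at 906, 792 and 871 CPM in HBM (log2 0.08 ± 0.06, adjusted p = 0.481). Asns, an asparagine synthetase under the control of ATF4, gave 24.7, 43.6 and 24.8 CPM in WT against 74.8, 110 and 32.3 CPM in HBM (log2 1.11 ± 0.24, adjusted p = 0.0808). Chac1, a glutathione-degrading enzyme induced by ATF4, gave 5.82, 17.5 and 4.91 CPM against 35.2, 57.5 and 7.77 CPM (log2 1.68 ± 0.36, adjusted p = 0.0808). For both genes the gap was wide in batches 18 and 19 and narrow in batch 21.

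Glycolysis and hypoxia genes varied between batches. All 20 had a log2 difference above 0, as did 8625 of the 17728 genes tested, and the median was 0.35. Of the 20, 12 had an unadjusted p under 0.05 in edgeR's test, against 22.9% of all genes tested. DESeq2 called 7 higher, and 1 passed in edgeR's test. That gene, Egln3, a prolyl hydroxylase that marks the hypoxia factor for degradation, was at 0.407, 3.9 and 0.402 CPM in WT and at 0.836, 10.2 and 0.913 CPM in HBM (log2 1.23 ± 0.13, adjusted p = 0.0348). The median log2 difference of the list was 0.22 in batch 18, 0.78 in batch 19 and 0.10 in batch 21. Ldha, the lactate dehydrogenase subunit of glycolytic cells, gave 390, 564 and 408 CPM in WT against 491, 995 and 446 CPM in HBM and did not pass (log2 0.43 ± 0.14, adjusted p = 0.166). Of 25 cell cycle genes none passed in edgeR's test (6 at an unadjusted p under 0.05, and 2 higher with DESeq2), at medians of 0.51, -0.09 and 0.07 in the 3 batches. None of 24 interferon response genes passed either (6 at an unadjusted p under 0.05, and 2 lower with DESeq2), with all 24 below 0 in batch 18 and 9 to 15 above 0 in the other batches. In either direction, 22.9% of all genes tested reached that unadjusted p, so both lists were near the background.

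Patterning factors, transcription factors that set the identity of skull and limb regions, had a median log2 difference of -0.32 over 34 tested, with 1 higher and 3 lower. By day, their median was -0.36 at day 0, which the sum leaves out, and -0.35, -0.29 and -0.26 at days 10, 15 and 21. Zic1, a zinc finger factor of the developing skull, was at 104, 121 and 140 CPM in WT and at 57.1, 82.2 and 87.9 CPM in HBM. The groups did not overlap, and Zic1 fell by 0.70 (standard error 0.07, adjusted p = 0.0309). Its neighbour Zic4 fell by 0.84 (standard error 0.08, adjusted p = 0.0309), and the forkhead factor Foxc1 fell by 0.45 (adjusted p = 0.0348). Shox2, a homeobox factor of limb skeleton, was at 5.79, 1.44 and 0.683 CPM in WT and at 11.7, 4.96 and 1.68 CPM in HBM (log2 1.35 ± 0.17, adjusted p = 0.0428).

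By size, the 12 largest higher differences among called genes with a mean of at least 2 CPM ran from a log2 of 1.40 to 1.81. They included Ibsp, Sost, Tnn, Dkk1 and Bglap2, described above. Slc16a3, a lactate exporter, led with 1.59, 19.7 and 2.83 CPM in WT and 7.32, 75.6 and 6.88 CPM in HBM. Batch 19 stood far above the others in both genotypes, and the log2 difference was 1.81 ± 0.18 (adjusted p = 0.0309). Ndufa4l2, a mitochondrial protein induced by hypoxia, was also highest in batch 19, with 11.2, 44.7 and 3.82 CPM in WT and 28, 162 and 15.3 CPM in HBM (log2 1.72 ± 0.14, adjusted p = 0.0271). Slc13a5, a citrate transporter with a known role in bone mineral, was at 44.5, 76.3 and 20.1 CPM in WT and at 145, 176 and 65.2 CPM in HBM (log2 1.54 ± 0.11, adjusted p = 0.0271). The remaining members were the neuropeptide galanin gene Gal (1.78), the secreted glycoprotein gene Stc2 (1.72), the kelch family gene Klhl30 (1.58) and the glycine transporter gene Slc6a9 (1.40).

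The 8 higher genes of smallest p had standard errors of 0.04 to 0.07. Bcat1, which starts the breakdown of branched-chain amino acids, was at 19.3, 30.7 and 10.6 CPM in WT and at 44.9, 62.5 and 22 CPM in HBM (log2 1.10 ± 0.06, adjusted p = 0.0271). Nupr1, a stress-induced nuclear protein, was at 94.8, 134 and 46.7 CPM in WT and at 237, 296 and 93.2 CPM in HBM (log2 1.15 ± 0.07, adjusted p = 0.0271). Raph1, a regulator of actin at the cell's leading edge, was at 29, 38.5 and 28 CPM in WT and at 46.4, 61.3 and 41.2 CPM in HBM, without overlap (log2 0.64 ± 0.04, adjusted p = 0.0271). Lgi2 (1.23), the small heat shock gene Hspb7 (1.10), the protease-like Prss35 (1.01), the acyltransferase gene Mboat1 (0.78) and the netrin receptor gene Unc5b (0.65) completed them, each with an adjusted p of 0.0271. Of these 8, chosen by their p in this comparison, the cultures of the 2 genotypes did not overlap for Hspb7, Mboat1 and Raph1; over all genes tested 10.5% did not overlap.

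In the lower direction the 12 largest differences ran from a log2 of -1.81 to -1.07, and each was lower in 9 of 9 comparisons within a batch and day. The genes were chosen on sums of these same libraries, with the same sign in all 3 pairs, so that count only describes them. Of the 170 lower genes, 155 were below 0 in all 9 (91.2%), as were 5.78% of all genes tested. Mybpc1, a myosin-binding protein of slow muscle, was at 8.49, 21.3 and 7.64 CPM in WT and at 3.59, 6.37 and 1.32 CPM in HBM (log2 -1.81 ± 0.25, adjusted p = 0.0448). Itga2, the alpha 2 subunit of a collagen-binding integrin, was at 26.6, 43.6 and 37.9 CPM in WT and at 16.1, 14.9 and 18.3 CPM in HBM (log2 -1.11 ± 0.16, adjusted p = 0.0452). Smoc1, a matrix protein that binds calcium, was at 67.7, 88.9 and 73 CPM in WT and at 41.2, 42.6 and 26.7 CPM in HBM (log2 -1.08 ± 0.14, adjusted p = 0.0432). In none of these 3 genes did the groups overlap. The same held for 94 of the 170 lower genes (55.3%) and for 10.5% of all genes tested. The others were the cell adhesion gene Nfasc (-1.69), the transcription factor gene Mecom (-1.50), the matrix gene Hmcn1 (-1.38), Wnt11 (-1.37), Neto2 (-1.14), the astrotactin gene Astn2 (-1.13), Cnmd (-1.13), Crocc2 (-1.07) and the splicing regulator gene Mbnl3 (-1.07).

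The 8 lower genes of smallest p, all at an adjusted p of 0.0271, included Tll1, Col9a3 and Rspo2. Fat4, an atypical cadherin, was at 217, 179 and 325 CPM in WT and at 142, 108 and 212 CPM in HBM (log2 -0.65 ± 0.05). Arnt2, a partner of bHLH-PAS transcription factors, was at 124, 73.1 and 168 CPM in WT and at 77.4, 47.5 and 114 CPM in HBM (log2 -0.62 ± 0.04). Lama1, the laminin alpha 1 chain of basement membranes, was at 6.91, 6.38 and 37.3 CPM in WT and at 3.42, 3.57 and 19.4 CPM in HBM (log2 -0.93 ± 0.07). Its level set batch 21 apart in both genotypes. Tspan8, a tetraspanin, fell by 0.90 and the transcriptional regulator Prdm6 by 0.79.

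**Figure D3:**
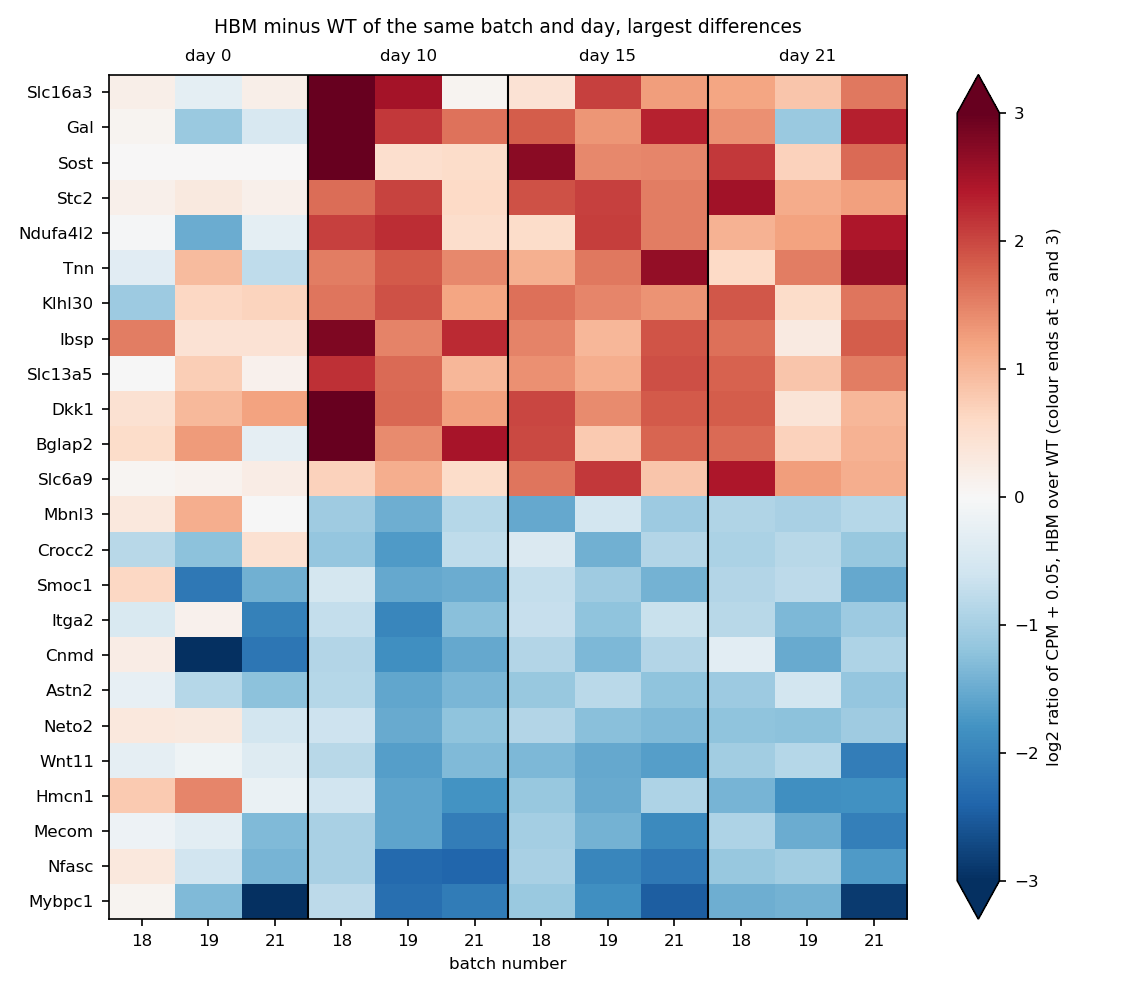
Log2 ratio of CPM, HBM over WT, for the 12 largest higher and the 12 largest lower genes (rows) in each batch on each day (columns), with red for higher and blue for lower in HBM and colour ending at -3 and 3. At days 10, 15 and 21 every upper row but Gal, at 8 of 9, is above 0 in 9 of 9 cells and every lower row is below 0 in 9 of 9, while day 0, which the sum leaves out, holds both signs. The genes were chosen on sums of the libraries of days 10, 15 and 21.

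Whether the sum hides days that differ was tested in the 18 single libraries. A change of the HBM difference among days 10, 15 and 21 passed for 1 of 16344 genes (0.00612%), against 1506 at an unadjusted p under 0.05. That gene, Cd36, a fatty acid receptor of adipocytes and macrophages, was not called in the summed comparison (log2 -0.34 ± 0.18, adjusted p = 0.331). The called genes were chosen on sums of these same libraries, so their values by day only describe them. Of the 249 higher genes, 185 were above 0 in all 9 comparisons within a batch and day (6.21% of all genes tested were), with median log2 differences of 0.64, 0.69 and 0.58 at days 10, 15 and 21. Of the 170 lower genes, 155 were below 0 in all 9 (5.78% of all genes), with medians of -0.60, -0.51 and -0.52. At day 0, which the choice did not use, the medians of the same genes were 0.09 and -0.18. The day 0 libraries carry the same batch numbers and are read as the same pools, so they are not an independent set of cultures. The mean day 0 difference was above 0 for 150 of the 249 (60.2%, against 44.3% of all genes) and below 0 for 123 of the 170 (72.4%, against 55.3%). In all 3 day 0 pairs, 69 of the 249 were above 0 (27.7%, against 12.5%) and 51 of the 170 were below 0 (30%, against 15.4%).

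The difference of the summed days from that at day 0 was tested directly and passed for none of 17321 genes in edgeR's test (0%), with 1127 at an unadjusted p under 0.05 and a smallest adjusted p of 0.328. Alpl had a mean log2 difference of -1.29 at day 0 and of 0.97, 1.05 and 0.90 at days 10, 15 and 21. The change of 2.29 had an unadjusted p of 0.000497 and an adjusted p of 0.329 in that test. Its day 0 levels were low, at 1.44, 3.18 and 28 CPM in WT and 1.5, 0.445 and 11.8 CPM in HBM. The pair of batch 18 thus hardly differed at day 0. A different HBM effect after differentiation was therefore not shown for any single gene. Leaving out a pair gave 51 to 299 calls in this test, and 0 to 37 in the test among days, so both counts depended on the pairs used.

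Markers of other cell types were read in the same cultures. Of 13 cartilage genes tested, 3 were lower, none was higher, and the median log2 difference was -0.52. By day, the median of the list was -1.43 at day 0, which the sum leaves out. It was -1.05, -0.30 and -0.37 at days 10, 15 and 21, so a median below 0 was also seen before differentiation. The day 0 difference alone was not tested. Cnmd, which encodes chondromodulin, was at 133, 412 and 477 CPM in WT and at 84, 141 and 211 CPM in HBM, and it fell by 1.13 (standard error 0.17, adjusted p = 0.0481). At day 0 it was at 0.348, 115 and 70.1 CPM in WT and at 0.418, 10.2 and 15.6 CPM in HBM. Batch 18 was thus near 0 at day 0 and not lower in HBM. Sox9, the master regulator of cartilage, fell by 0.35 (standard error 0.05, adjusted p = 0.0477), and Col9a3 was the third. The summed level of the list was 1879, 4860 and 3890 CPM in WT and 2760, 3680 and 2221 CPM in HBM, so it was lower in HBM in batches 19 and 21 and higher in batch 18, where Col11a2, which osteoblasts also express, was at 445 CPM in WT and 1425 CPM in HBM. The defining gene Col2a1 was at 604, 1891 and 2381 CPM in WT and at 655, 1147 and 1223 CPM in HBM (adjusted p = 0.238).

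Adipocyte and macrophage genes gave no call in edgeR's test, where 2.36% of all genes passed. In these lists 3 of 11 and 0 of 13 had an unadjusted p under 0.05, against 22.9% of all genes tested. DESeq2 called 3 and 0. Both medians lay below 0, at -0.85 and -0.31. For adipocyte genes the median log2 difference was 0.13 in batch 18 and -1.68 and -1.72 in batches 19 and 21; Adipoq, the gene of adiponectin, was at 23.5, 4.44 and 4.25 CPM in WT and at 25.7, 0.838 and 0.0247 CPM in HBM. For macrophage genes the median was -1.07 in batch 18 and 0.12 and -0.02 in batches 19 and 21, with summed levels of 4190, 5600 and 10214 CPM in WT and 2083, 5450 and 10543 CPM in HBM. The osteoblast list had medians of 0.95, 0.63 and 0.97 in the 3 batches. The part of these cells in the osteoblast differences was not tested. Of the other lists, osteoclast genes (8 tested, median 0.11), smooth muscle and pericyte genes (11, 0.02), endothelial genes (6, 0.16), skeletal muscle genes (5, 0.16) and blood genes (2, -0.13) held no call in edgeR's test, with 1, 4, 0, 1 and 0 at an unadjusted p under 0.05 and 0, 2, 0, 1 and 0 called by DESeq2. Of 6 neural and glial genes, 2 had a log2 difference above 0 and 4 below 0, with a median of -0.19. Only the neuronal tubulin gene Tubb3 was called, as higher (0.87).

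**Figure D4:**
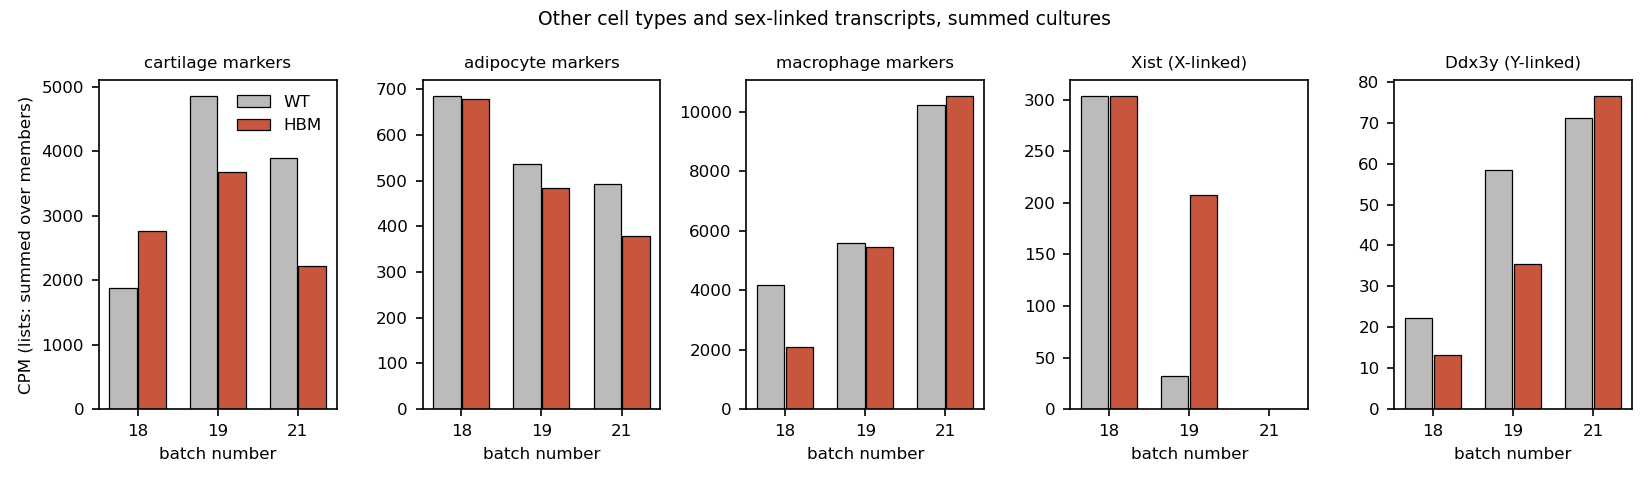
Summed CPM of the cartilage, adipocyte and macrophage lists and CPM of Xist and Ddx3y (vertical, linear from 0, a separate range for each panel) in the WT (grey) and HBM (red) culture of each batch. Cartilage genes are lower in HBM in batches 19 and 21, macrophage genes in batch 18, and Xist is near 0 in both cultures of batch 21.

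The pools also differed in sex-linked transcripts. Xist, the transcript of the inactive X of female cells, was at 304, 31.9 and 0.00935 CPM in WT and at 304, 208 and 0.0164 CPM in HBM, and the Y-linked Ddx3y was at 22.3, 58.5 and 71.1 CPM in WT and at 13.3, 35.5 and 76.6 CPM in HBM. The median log2 difference of the 249 higher genes was 0.70, 0.62 and 0.64 in batches 18, 19 and 21 and that of the 170 lower genes -0.49, -0.57 and -0.56, with all 3 pairs used in choosing them. The part of pool sex in the differences was not tested.

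Genes beside Col1a1 were counted because a line made by changing Col1a1 can carry neighbouring variants. Of 148 tested genes that start within 5000000 bases of Col1a1 on chromosome 11, 5 were higher and none was lower (3.38%, against 2.36% of all genes and 2.8% of the 1393 tested on the chromosome). They were Sgca (chr11:94962791-94976327, a sarcoglycan next to Col1a1, log2 1.21, adjusted p = 0.0418), Lrrc59 (0.41), Rapgefl1 (0.53), Phospho1 (1.23) and Dlx3 (1.27). Phospho1 and Dlx3 belong to the osteoblast genes above. No test of the neighbourhood was made, and variants of the line were not analysed here.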

How the data were processed

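Polyadenylated RNA of mouse calvarial osteoblast cultures was sequenced, per the labels. The deposited table holds the authors' counts of reads per gene, made with cutadapt 3.4, STAR 2.7.8a and featureCounts of Subread 2.0.1 on mm10, per the submitters' processing notes; for the strand setting and the annotation release the entry is not given in the sources used here, so reads of a gene and of an antisense partner cannot be told apart. Of 54232 gene rows, 54164 matched GENCODE M21, which gave symbols and mm10 coordinates.

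Counts of days 10, 15 and 21 were summed for each genotype and batch number, and the 6 sums were tested in R 4.3.3 with edgeR 4.0.16: filterByExpr by genotype (minimum count 10), trimmed mean of M values scaling (factors 0.924 to 1.08), a quasi-likelihood test with the batch as a block and 2 residual degrees of freedom, and Benjamini-Hochberg adjustment with a threshold of 0.05. The rule of the comparison pairs cultures by the batch number of the labels. As a check, deviations from the genotype mean correlated across 17728 genes at 0.722, 0.726 and 0.789 between WT and HBM cultures of the same number. Between others they correlated at most at -0.0595. The deviations of a genotype cancel out, so positive values within batches make those between batches negative on balance, and the contrast adds nothing to the positive values. The common biological coefficient of variation was 0.0991 with the block and 0.286 without. Changes with day were tested in models with a term for each culture and for batch by day (or batch by stage); reading the same batch number on different days as one culture is an assumption. Day-wise ratios of single libraries had 0.05 CPM added. Counts carry no molecular identifiers. The p-values rest on the spread between 3 pairs of pooled cultures, with the spread of each gene moderated towards that of all genes. Each standard error is the absolute log2 difference divided by the square root of the F statistic, so it is moderated too.

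The text names 14 fixed genes, in each direction the 12 called genes of largest difference (mean of at least 2 CPM, same sign in 3 pairs, no provisional symbol) and the 8 of smallest p, up to 4 of smallest p in each list, and the 4 of smallest p in each direction of the change tests; others, named to complete a list or as background, were chosen after their values were seen. Some genes are not reported here. The genes and lists were chosen with earlier results of these data known. Alternatives were the fit without the block, DESeq2 1.42.0, other scaling and filters, each pair left out and other sums of days; the main fit was also tested on simulated data, where it recovered most planted changes and made somewhat more false calls than the threshold allows. Promoter windows are from RefSeq (GRCm38.p6).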

Additional observations from a re-analysis of the deposited data

Results flagged for a closer look

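Cd36 was the single gene whose HBM difference changed among days 10, 15 and 21 (edgeR's quasi-likelihood test, adjusted p = 0.0375). At day 10 it was at 70.5, 53.4 and 93.3 CPM in WT and 52.4, 87.3 and 116 CPM in HBM; at day 15 at 85.8, 105 and 147 CPM and 60.3, 118 and 205 CPM; and at day 21 at 132, 206 and 363 CPM and 41.2, 143 and 196 CPM. All HBM cultures lay below their WT partners at day 21, and the log2 difference changed by -1.23 from day 10 to day 21. Without the pair of batch 18 its adjusted p was 0.186 (change -1.22), and without those of batches 19 and 21 it was 0.00405 and 0.0332. Cd36 is made by adipocytes and macrophages. The adipocyte list had median log2 differences of 0.36, -1.35 and -1.79 on these days, and the macrophage list of 0.06, -0.28 and -0.65; their part in the change of Cd36 was not tested.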

How the results depend on the processing

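The counts of called genes rested on the pairing and on 2 of the 3 pairs. All called genes had the same sign in the 3 pairs, so their sign without a pair or the block is fixed and says nothing of stability. Without the replicate block 0 genes were higher and 0 lower (862 at an unadjusted p under 0.05), and the test among days called 0. DESeq2 called 769 higher and 661 lower of 30373 genes, 416 of the 419 among them. Beside that background it called 18 of 22 osteoblast genes and 13 of 26 procollagen genes higher. Without the filter on low counts the numbers were 669 and 553, with 190 in the test among days and 1 in that against day 0. Leaving out a pair gave 0 to 384 higher and 0 to 422 lower genes, 0 to 37 among days and 51 to 299 against day 0. Without batch 21 no gene was higher or lower, and without batch 19 only 1 was, with 3350 and 2305 genes at an unadjusted p under 0.05. Days 15 and 21 alone gave 78 and 69, days 10 and 21 gave 20 and 6, and day 0 added to the sum gave 0 and 0 (2895 at an unadjusted p under 0.05). Alternatives chosen after seeing the data gave 2 and 0 at day 10, 399 and 261 at day 15 and 0 and 0 at day 21. Median-ratio scaling (245 and 176), equal library totals (248 and 176) and days 10 and 15 (345 and 223) stayed within 1.5 times. The cause of these shifts was not tested, beyond the smaller number of cultures or days. At these depths counting error weighs on genes of low level, such as Egln3 (0.402 CPM in a WT culture). Col1a1, with many counts, ran from an adjusted p of 0.0128 at day 15 alone to 0.352 without batch 19 over the edgeR fits that keep the pairing and the filter.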

Other observations

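Outside the lists, some called genes were picked after their values were seen, and no test was made of them as groups. Cyp51, an enzyme of sterol synthesis, was at 66.8, 63.8 and 43.2 CPM in WT and at 87.4, 83.8 and 54.8 CPM in HBM (log2 0.37 ± 0.04, adjusted p = 0.0316). Of other genes of that pathway, Hmgcs1 (0.31, adjusted p = 0.0448), Fdft1 (0.33, adjusted p = 0.0406) and the sterol sensor partner Insig1 (0.34, adjusted p = 0.0392) were higher too. Sqle (0.27, adjusted p = 0.0634), Lss (0.19, adjusted p = 0.092), Idi1 (0.25, adjusted p = 0.13) and Dhcr7 (0.17, adjusted p = 0.201) did not pass.

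Among receptors for collagen, Itga1 was at 121, 143 and 139 CPM in WT and at 82.8, 82 and 76.8 CPM in HBM, without overlap (log2 -0.74 ± 0.07, adjusted p = 0.0309), beside the lower Itga2 of the report. Their partner subunit Itgb1 had a log2 difference of 0.07 (adjusted p = 0.543), the related Itga10 and Itga11 had 0.65 (adjusted p = 0.0645) and 0.17 (adjusted p = 0.32), and the collagen receptor kinases Ddr1 and Ddr2 had -0.24 (adjusted p = 0.0867) and -0.03 (adjusted p = 0.803). Nid1, a basement membrane protein, was at 1321, 979 and 976 CPM in WT and at 862, 647 and 628 CPM in HBM and fell by 0.62 (adjusted p = 0.0271). Ptch1, the hedgehog receptor, was higher by 0.74 (adjusted p = 0.0282), while Gas1, a coreceptor of the same pathway, fell by 0.76 (adjusted p = 0.0354). Galnt3, whose product glycosylates the phosphate hormone FGF23, was at 7.43, 17.2 and 3.37 CPM in WT and at 26.5, 32.6 and 8.94 CPM in HBM (log2 1.38 ± 0.18, adjusted p = 0.0429).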
